A study of Caenorhabditis elegans and Caenorhabditis briggsae
Caenorhabditis elegans with 146 samples.

Results

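The ceh genes (C. elegans homeobox) encode transcription factors that bind DNA through a homeodomain. All genes whose public name is ceh- followed by a number were followed here across embryonic stages, larval stages, sexes, dosage compensation mutants and RNAi, with the exception of ceh-13 and ceh-39, which were not included. This gave 44 genes of the 20411 in the expression table. Members were taken by name only, but the group itself was chosen with earlier results of these data known. The X chromosome carries 13 of them and the autosomes carry 31, with 8 on chromosome I, 4 on II, 8 on III, 3 on IV and 8 on V.

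Homeodomain factors of the worm are known mainly for fixing the identity of particular cells. Many act in a few classes of neurons, others in the pharynx, the epidermis, the excretory cell, the gonadal sheath or the mesoderm, and some are loaded into the oocyte or are transcribed soon after fertilization. The group spans several structural classes: PRD-like genes such as the Otx relatives ceh-36 and ceh-37, sine oculis-type genes, CUT genes, NK genes, other Antennapedia-like (ANTP) genes such as the engrailed relative ceh-16 and the Distal-less relative ceh-43, POU genes, the LIM gene ceh-14, the PBC (Pbx-like) genes ceh-20, ceh-40 and ceh-60, and the Prospero relative ceh-26. Because RNA came from whole embryos or larvae, fewer cells that express a gene and less RNA per cell cannot be told apart in any of the values given here.

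The mRNA was measured by RNA-seq in whole embryos and larvae to follow X chromosome dosage compensation, in which a condensin complex binds the X chromosomes of XX hermaphrodites and lowers their expression. dpy-27 encodes a condensin subunit of that complex, dpy-21 a histone demethylase associated with it, and set-1 and set-4 the methyltransferases that place methyl groups on the same histone residue. Values are FPKM, fragments per kilobase of transcript scaled to the mapped fragments of the library, in 79 libraries, and a further 6 libraries hold read counts with a C. briggsae spike-in. Chromatin assays of the same series were not used here.

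The mutants were dpy-27(y56) (strain MK4), sampled as early embryos and at L1, dpy-21(e428) (strain CB428), sampled as early embryos, at L3 and as mixed embryos, set-4(n4600) (strain MT14911), sampled at L3, as mixed embryos and at L1 with the spike-in, and homozygous set-1(tm1821), sampled as larvae. The dpy-27(y56) embryos came from homozygous mothers of a balanced strain and so lack, by genotype, maternal as well as zygotic function. They were set against N2, the wild type strain of hermaphrodites, and against heterozygous dpy-27(y56) early embryos. Homozygous set-1(tm1821) larvae were picked as animals without GFP from strain SS1075 and set against heterozygous larvae of that strain, which carry a balancer marked with GFP. Their sample titles say L2 and their column names say L3. dpy-27 RNAi was given by feeding to N2 worms and set against Vector RNAi in mixed embryos and L3 larvae. N2 hermaphrodites were set against mixed sex cultures of BS553 fog-2(oz40), which hold XX and XO animals, so that sex and strain cannot be told apart. Early embryos have fewer than 40 cells, comma embryos were aged for 4 hours, L1 larvae were fed for 6 hours and L3 larvae for 24 hours, and mixed embryos were bleached out of adults, which had been grown from synchronised L1 larvae for RNAi and were not synchronised for dpy-21(e428) and set-4(n4600). Groups hold 2 to 6 libraries, which the study's methods call biological replicates, and the p-values measure the spread between these libraries only.

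Several libraries stood apart from their labels. N2 L1 replicate 3 and mixed sex L1 replicate 1 hold identical values in 20376 of 20376 genes and were left out of both groups, which leaves 2 libraries in each. In the N2 L1 libraries kept, 6 sperm markers summed to 10.1 to 11.4 FPKM. Their sum was 0 to 0.797 FPKM in mixed sex and 0 to 1 FPKM in dpy-27(y56) L1 larvae. Adult yolk markers summed to 3.23 to 16.4 FPKM in N2 L1 larvae, against 0.618 to 1.58 and 1.23 to 2.82 FPKM in the same 2 groups. These N2 libraries serve every FPKM comparison with N2 L1 larvae, and the cause was not tested. In mixed embryos the set-4 gene was at 0.223 FPKM in the library labelled dpy-21(e428) replicate 3, against 32.7 to 62.2 FPKM in the other dpy-21(e428) libraries, and at 52.6 FPKM in the library labelled set-4(n4600) replicate 2, against 0.043 to 0.14 FPKM in the other set-4(n4600) libraries. dpy-27 stood at 115 FPKM in dpy-27 RNAi L3 replicate 1, above all Vector RNAi L3 libraries (17.1 to 26 FPKM). The lowest dpy-27 RNAi L3 library was at 15.7 FPKM, close to the lowest Vector RNAi one, so the transcript shows no clear knockdown at L3. In mixed embryos dpy-27 was lower in all dpy-27 RNAi libraries (26 to 36.9 FPKM) than in Vector RNAi libraries (64.9 to 135 FPKM). From western blots the paper reports a partial loss of DPY-27 protein, smaller in L3 larvae than in embryos. The set-4 level was 0 to 0.895 FPKM in set-4(n4600) L3 larvae, against 7.96 to 11.2 FPKM in N2. The mutated gene's transcript was less clear a check in the other mutants. dpy-27 was at 39.1 to 59.7 FPKM in dpy-27(y56) early embryos, against 56.7 to 59.9 FPKM in N2, and at 25.5 to 41.3 FPKM in dpy-27(y56) L1 larvae, against 38.4 to 41.1 FPKM in N2. dpy-21 was at 21.3 to 75 FPKM in dpy-21(e428) early embryos, against 83.6 to 88.6 FPKM in N2, but at 20.4 to 24.1 FPKM in dpy-21(e428) L3 larvae, against 21.1 to 30.6 FPKM in N2. set-1 was at 20.3 to 24.9 FPKM in homozygous set-1(tm1821) larvae, against 24.2 to 26.4 FPKM in heterozygous larvae. her-1, a male-determining gene, was at 7.32 to 9.48 FPKM in N2 early embryos, against 85.1 to 134 FPKM in mixed sex early embryos. FPKM values hold no read counts, so the depth behind each gene is unknown, and the spread between libraries is given as the precision.

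The ceh genes were most abundant at the comma stage. In N2, 22 of the 44 genes had a mean above 1 FPKM in early embryos, 40 in comma embryos, 39 in L1 larvae and 31 in L3 larvae. Among all genes the share above 1 FPKM was 45.5%, 57.6%, 72.1% and 61.0% at the same stages, beside 50.0%, 90.9%, 88.6% and 70.5% of the ceh genes. The share of all genes in N2 L1 larvae was above the 62% of mixed sex and the 64.5% of dpy-27(y56) L1 larvae. The ceh share in those 2 groups was 79.5% and 86.4%. The median level of a ceh gene was 1.02 FPKM in early embryos, 16.6 FPKM in comma embryos, 6.25 FPKM in L1 larvae and 2.15 FPKM in L3 larvae, beside medians of 0.563, 2.47, 3.98 and 3.37 FPKM over all genes. The highest mean fell in early embryos for 9 genes, 4 of them X-linked, and in comma embryos for 26 genes, 6 of them X-linked. For a further 8 genes (ceh-1, ceh-7, ceh-9, ceh-18, ceh-23, ceh-33, ceh-52 and ceh-90) it fell in L1 larvae, and for ceh-12, a relative of HB9 that acts in ventral cord motor neurons, in L3 larvae. ceh-7, ceh-12 and ceh-28, the last of them counted among the 26 comma genes, were too low to be tested in any N2 stage comparison. The highest stage of these genes rests on low values. The most abundant member was the CUT gene ceh-38 in early embryos (149.6 FPKM) and the Pbx gene ceh-20 at the later stages (243.1 FPKM in comma embryos, 59.1 FPKM in L1 larvae and 31.8 FPKM in L3 larvae). ceh-12, ceh-17, ceh-24, ceh-28 and ceh-33 are listed at 0 in all 3 N2 early embryo libraries.

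**Figure D1:**
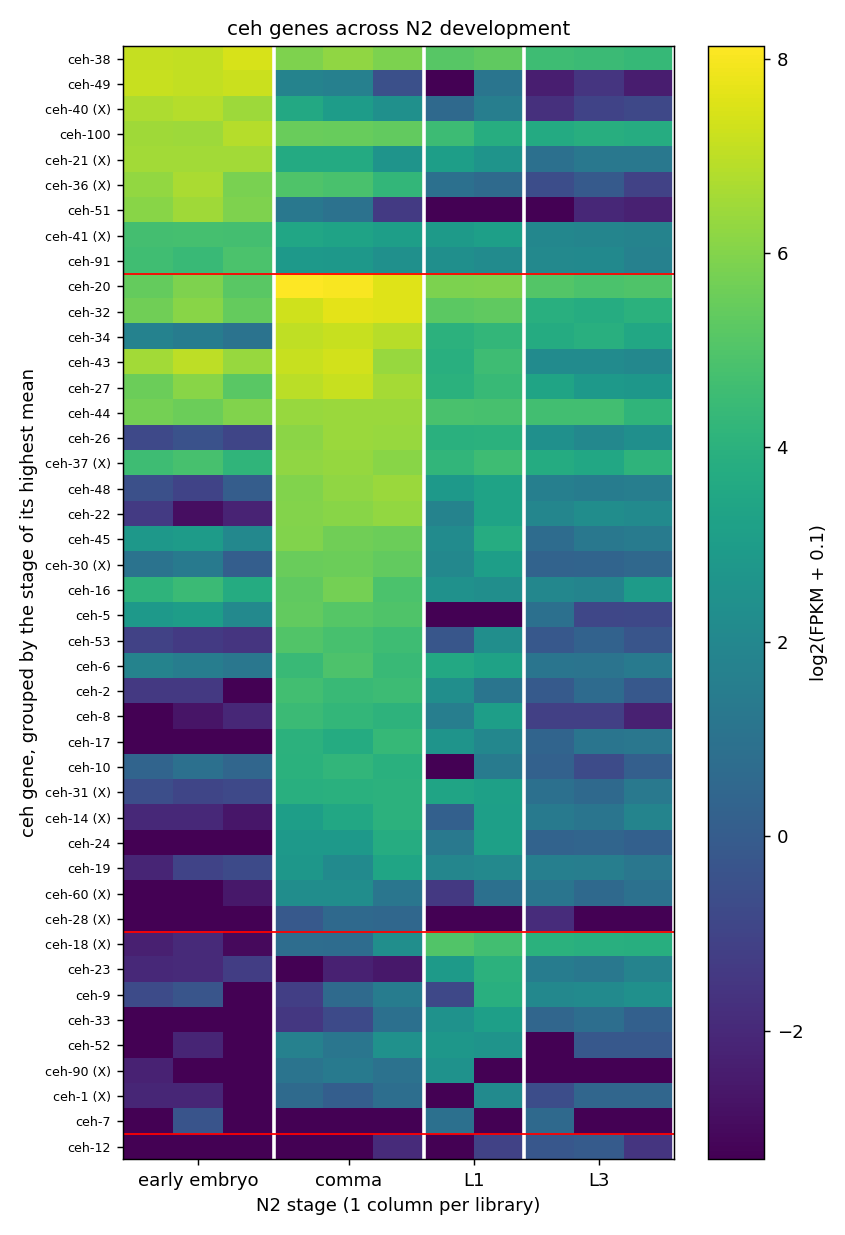
Level of each of the 44 ceh genes as log2(FPKM + 0.1) in every N2 library (1 column per library, white lines between stages), with genes grouped between red lines by the stage of their highest mean and X-linked genes marked. The group of 26 genes that were highest in comma embryos is the largest, and the 9 genes above it were highest in early embryos.

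A small set of genes was high in early embryos and fell by the comma stage. ceh-51, an NK gene that acts in the mesodermal MS lineage, was at 69.0, 89.7 and 60.1 FPKM in early embryos, 2.30, 1.91 and 0.289 FPKM in comma embryos, listed at 0 in both L1 libraries, and at 0, 0.144 and 0.106 FPKM in L3 larvae. The CUT gene ceh-49 was at 141.8, 136 and 150.5 FPKM in early embryos, 3.38, 3.08 and 0.6 FPKM in comma embryos, 0 and 2.11 FPKM in L1 larvae, and 0.0959, 0.239 and 0.0878 FPKM in L3 larvae. Neither gene overlapped between early and comma embryos, and neither came back to its first level at a later stage. ceh-40, a PBC gene, was at 12, 7.95 and 5.28 FPKM in comma embryos, against 106, 116 and 88.0 FPKM in early embryos. ceh-21, an X-linked CUT gene, was at 12.9, 12.6 and 6.05 FPKM in comma embryos, against 93.9, 93.8 and 93.3 FPKM in early embryos. These 4 had the largest falls, with log2 ratios of comma over early embryo of -6.22 ± 0.52 (SE) for ceh-49, -5.91 ± 0.60 for ceh-51, -3.71 ± 0.25 for ceh-40 and -3.26 ± 0.24 for ceh-21, and adjusted p (limma, Benjamini-Hochberg over all genes tested) between 5.86e-06 and 4.29e-05. The other genes that fell were ceh-36, ceh-38, ceh-41, ceh-91 and ceh-100.

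The larger set rose between early embryo and comma. ceh-22, the relative of Nkx2.5 that activates pharyngeal muscle genes, was at 65.0, 69.3 and 76.9 FPKM in comma embryos, against 0.283, 0.0341 and 0.120 FPKM in early embryos, a log2 ratio of 8.26 ± 0.41 (SE, adjusted p = 1.98e-06 with limma). ceh-26, the worm Prospero gene, was at 71.1, 85.1 and 83.2 FPKM in comma embryos, against 0.476, 0.637 and 0.420 FPKM in early embryos (log2 ratio 7.0 ± 0.24, adjusted p = 1.04e-06). For ceh-8, a relative of Rax, the values were 22.1, 19.4 and 16.8 FPKM in comma embryos, against 0, 0.0566 and 0.140 FPKM in early embryos (log2 ratio 6.93 ± 0.40, adjusted p = 3.19e-06). In each of these genes every comma library lay far above every early embryo library. ceh-17, the Phox2 relative of the ALA and SIA neurons, was at 16.1, 13.3 and 20.5 FPKM in comma embryos and is listed at 0 in the early embryo libraries, as is ceh-24, an NK gene of a pharyngeal muscle and the vulval muscles, which was at 7.21, 7.04 and 13.6 FPKM in comma embryos. No ratio is given for these.

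Of the 44 genes, 37 were above the filter of 1 FPKM on the mean of the group means, and 27 were higher and 9 lower in comma than in early embryos. Some of the 27, such as ceh-8, ceh-22 and ceh-26, were below 1 FPKM in every early embryo library. They passed the filter only through the comma group, which fixed their direction. Over all 11755 genes tested, 45.3% were higher and 39.3% lower. The median log2 ratio was 3.08 for the ceh genes tested, beside 0.24 for all genes. Of the 11 X-linked ceh genes tested, 7 were higher and 4 (ceh-21, ceh-36, ceh-40 and ceh-41) were lower, with a median of 3.68 beside 1.93 for all X-linked genes. ceh-43 was not called. ceh-1, ceh-7, ceh-9, ceh-12, ceh-23, ceh-28 and ceh-33 were too low to be tested. Among homeobox genes with other names, a list of 28 of which 27 are in the table, 21 of the 26 tested were higher and 2 lower, with a median log2 ratio of 2.44. The summed level of 8 maternal and early embryo markers was 91.1 to 193 FPKM in comma embryos, against 3160 to 4920 FPKM in early embryos, and that of 3 body wall muscle genes was 523 to 1070 FPKM, against 2.67 to 5.40 FPKM.

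By class, all but 1 of the 7 PRD-like genes rose by the comma stage, and ceh-36 fell. The 2 sine oculis-type genes tested rose. ceh-34, a sine oculis relative that acts in pharyngeal neurons, was at 133, 141.95 and 118 FPKM in comma embryos, against 3.30, 2.71 and 1.98 FPKM in early embryos (log2 ratio 5.55 ± 0.20). ceh-32, an Optix relative expressed in the head, started high and was at 158, 200 and 191 FPKM in comma embryos, against 50.7, 68.9 and 42.6 FPKM in early embryos (1.74 ± 0.20). The 6 CUT genes were divided, with ceh-44 and ceh-48, known from neurons, higher, and ceh-21, ceh-38, ceh-41 and ceh-49 lower. ceh-48 was at 62.1, 74.6 and 83.7 FPKM in comma embryos, against 0.592, 0.401 and 0.934 FPKM in early embryos (6.64 ± 0.33). ceh-44 and ceh-38 moved far less than ceh-48. ceh-44 was at 81.4, 84.3 and 84.5 FPKM in comma embryos, against 53.5, 47.6 and 62.1 FPKM in early embryos (0.58 ± 0.15), and ceh-38 was at 59.4, 73.9 and 57.6 FPKM in comma embryos, against 140, 137 and 172 FPKM in early embryos (-1.27 ± 0.15). Of the 4 NK genes tested, ceh-22, ceh-24 and ceh-27 rose and ceh-51 fell. Of the 6 other ANTP genes tested, ceh-2, ceh-5, ceh-16, ceh-30 and ceh-31 rose, as did the POU genes ceh-6 and ceh-18, the LIM gene ceh-14 and the Prospero gene ceh-26. Of the PBC genes, ceh-20 and ceh-60 rose and ceh-40 fell. Of the genes placed in no class, ceh-19, ceh-52 and ceh-90 rose, and ceh-91 and ceh-100 fell.

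Some genes were already abundant in early embryos, and of these ceh-20 and ceh-27 rose further by the comma stage. ceh-20 was at 42.7, 59.6 and 36.7 FPKM in early embryos, 280, 258 and 191 FPKM in comma embryos, 58.5 and 59.6 FPKM in L1 larvae, and 33.8, 29.9 and 31.6 FPKM in L3 larvae. The NK gene ceh-27 was at 47.2, 68.4 and 37.1 FPKM in early embryos, 123, 143 and 97.4 FPKM in comma embryos, 15.9 and 20.9 FPKM in L1 larvae, and 10.1, 7.29 and 6.67 FPKM in L3 larvae. ceh-43, which acts in the anterior epidermis and in dopaminergic neurons, was at 93.2, 127 and 82.4 FPKM in early embryos, 143, 161 and 81.8 FPKM in comma embryos, 14.7 and 23.8 FPKM in L1 larvae, and 4.48, 4.45 and 3.91 FPKM in L3 larvae. ceh-20 and ceh-27 had comma libraries above all early embryo libraries, whereas those of ceh-43 overlapped. ceh-16, the engrailed gene of the seam cells, was at 39.8, 52.4 and 29.1 FPKM in comma embryos, against 17.4, 22.4 and 13 FPKM in early embryos (1.15 ± 0.24). ceh-6, a POU gene of the excretory cell and of neurons, started lower and was at 21.7, 30.5 and 21.4 FPKM in comma embryos, against 3.39, 2.83 and 2.25 FPKM in early embryos (3.03 ± 0.24).

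Neighbouring ceh genes differed in their stage patterns in some pairs and not in others. ceh-36 and ceh-37 are next to each other on the X with no annotated gene between them in the reference assembly. ceh-36, known from the AWC and ASEL sensory neurons, was at 76.4, 102 and 56.7 FPKM in early embryos, 31.8, 28.4 and 19.1 FPKM in comma embryos, 1.76 and 1.44 FPKM in L1 larvae, and 0.558, 0.837 and 0.383 FPKM in L3 larvae. ceh-37, known from the AWB neurons, was at 23.8, 28.1 and 17.7 FPKM in early embryos, 75.1, 79.2 and 68.9 FPKM in comma embryos, 18.4 and 23.7 FPKM in L1 larvae, and 13, 11.5 and 17.4 FPKM in L3 larvae. ceh-36 was thus the more abundant of the pair in early embryos and ceh-37 at all later stages. The log2 ratio of comma over early embryo was -1.6 ± 0.23 for ceh-36 and 1.66 ± 0.18 for ceh-37. ceh-33 and ceh-34 also adjoin, on chromosome V, and ceh-33 was at 0.265, 0.502 and 1.79 FPKM in comma embryos, where ceh-34 was at 118 to 141.95 FPKM. ceh-21 and ceh-41 adjoin on the X and both fell, by 3.26 and 1.48 on the log2 scale. The BarH-like genes ceh-30 and ceh-31, which lie on the X with 5 genes between them, both rose, by 4.62 ± 0.32 and 4.68 ± 0.27. Counting by Cufflinks can divide reads between genes that overlap or resemble each other, which was not tested for these pairs.

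**Figure D2:**
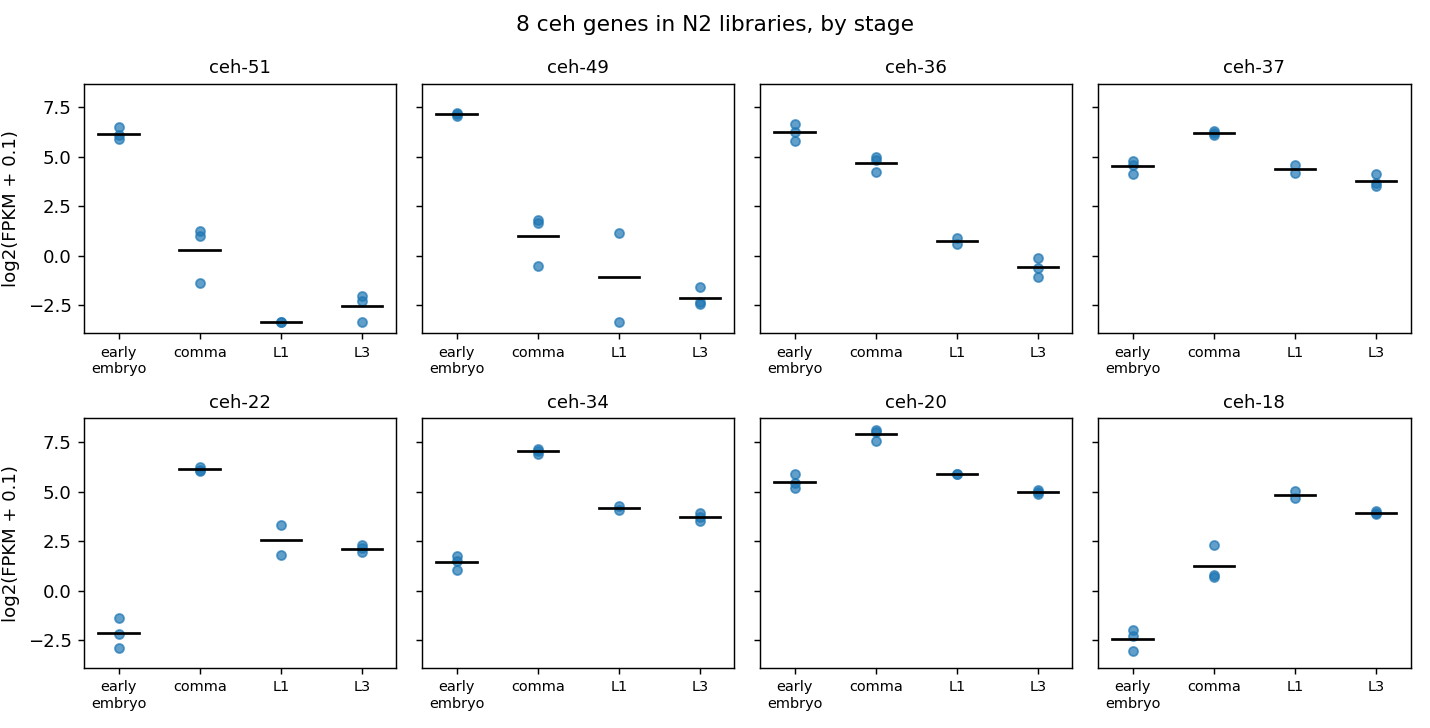
Levels of 8 ceh genes as log2(FPKM + 0.1) in each N2 library at 4 stages, with points for libraries and bars for the mean of the log2 values. ceh-51, ceh-49 and ceh-36 were highest in early embryos, ceh-37, ceh-22, ceh-34 and ceh-20 in comma embryos, and ceh-18 in L1 larvae.

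From comma to L1 most ceh genes fell. Of 40 genes tested, 3 were higher and 24 lower in L1 larvae than in comma embryos, where 25.5% of all 14138 genes were higher and 24.3% lower (limma). Their median log2 ratio was -1.84, beside 0.03 for all genes. All 7 PRD-like genes fell, as did 5 of the 6 other ANTP genes tested and 3 of the 6 CUT genes. ceh-5, a relative of Vax, is listed at 0 in both L1 libraries and was at 41.6, 34.6 and 31.6 FPKM in comma embryos. The other large falls were those of ceh-10, the Vsx relative of the AIY and CAN neurons, at 0 and 2.62 FPKM in L1 larvae, against 15.8, 18.6 and 15.2 FPKM in comma embryos (log2 ratio -4.93 ± 1.36, adjusted p = 0.0294), of ceh-36 (-3.87 ± 0.33, adjusted p = 0.000803), and of ceh-53 (-3.70 ± 0.75, adjusted p = 0.0111). ceh-22 was at 3.34 and 9.91 FPKM in L1 larvae and ceh-34 at 16.5 and 19.2 FPKM, both below all comma libraries. The further genes that fell were ceh-2, ceh-6, ceh-8, ceh-16, ceh-17, ceh-20, ceh-26, ceh-27, ceh-30, ceh-32, ceh-37, ceh-38, ceh-40, ceh-43, ceh-44, ceh-45, ceh-48 and ceh-100. The other homeobox genes moved likewise, with 0 higher and 18 lower of 27 tested.

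The 3 genes that rose belong to different classes. ceh-23 was at 7.43 and 16.2 FPKM in L1 larvae, against 0, 0.105 and 0.0658 FPKM in comma embryos (log2 ratio 6.23 ± 0.74, adjusted p = 0.00214). ceh-18, a POU gene of the gonadal sheath cells, was at 32.4 and 25.2 FPKM in L1 larvae, against 1.6, 1.54 and 4.91 FPKM in comma embryos (3.64 ± 0.62, adjusted p = 0.00629). ceh-33 was at 5.59 and 8.84 FPKM in L1 larvae, against 0.265, 0.502 and 1.79 FPKM in comma embryos (3.32 ± 0.86, adjusted p = 0.0243). In each, both L1 libraries lay above all 3 comma libraries. ceh-23 passed the filter only through the L1 group. The 13 genes not called included ceh-21, ceh-24, ceh-31 and ceh-41, and ceh-7, ceh-12, ceh-28 and ceh-51 were too low to be tested. ceh-33 kept its call without comma replicate 3 and lost it without any other 1 of the 5 libraries (adjusted p of 0.068 to 0.114), ceh-10 lost its call without any 1 of the 3 comma libraries (0.0778 to 0.0814), and ceh-18 lost it without N2 L1 replicate 1 (0.0699). Over the same interval the summed level of 4 epidermal markers was 108 to 121 FPKM in L1 larvae, against 960 to 1050 FPKM in comma embryos, with all 4 lower in every L1 library, and that of the maternal markers was 31.5 to 36.6 FPKM, against 91.1 to 193 FPKM. The 8 neuronal markers summed to 1260 to 1520 FPKM in L1 larvae, against 368 to 473 FPKM in comma embryos, with 5 of them higher in every L1 library. The part of these tissues in the results was not tested.

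Between L1 and L3 no ceh gene rose and 16 of 38 tested fell, where 15.9% of all 13943 genes were higher and 13.4% lower (limma). Among ceh genes the median log2 ratio was -1.04, beside 0.02 for all genes. Among the genes called, the largest falls were those of ceh-8, at 0.348, 0.348 and 0.106 FPKM in L3 larvae, against 2.92 and 8.35 FPKM in L1 larvae (log2 ratio -3.67 ± 0.77, adjusted p = 0.0245), and of ceh-31, at 1.77, 1.43 and 2.35 FPKM in L3 larvae, against 10.2 and 9.13 FPKM in L1 larvae (-2.11 ± 0.36, adjusted p = 0.0153). In both, every L3 library lay below every L1 library. ceh-33 was at 1.29, 1.66 and 1.05 FPKM in L3 larvae, against 5.59 and 8.84 FPKM in L1 larvae (-2.11 ± 0.40, adjusted p = 0.0198), and ceh-6 at 2.08, 2.05 and 2.48 FPKM, against 11.8 and 9.55 FPKM in L1 larvae (-1.98 ± 0.30, adjusted p = 0.0108). The other genes that fell were ceh-18, ceh-20, ceh-21, ceh-23, ceh-26, ceh-27, ceh-30, ceh-32, ceh-38, ceh-41, ceh-43 and ceh-48, and 5 of the 16 were X-linked. With a second collection of N2 L3 larvae the fall of ceh-20 was gone (log2 ratio -0.03, adjusted p = 0.937 with limma). Those of ceh-18 (-0.38, adjusted p = 0.273) and ceh-23 (-0.41, adjusted p = 0.414) were smaller and not called. Across the other settings the log2 ratio of ceh-48 ran from -1.52 to -0.03. ceh-44, which was at 25.1, 25.4 and 18 FPKM in L3 larvae and 28.3 and 27.9 FPKM in L1 larvae, was among the 22 genes not called. Beside these falls, 4 germ line markers summed to 132 to 160 FPKM in L3 larvae, against 17.6 to 20.1 FPKM in L1 larvae, with all 4 higher in every L3 library. The 8 neuronal markers summed to 650 to 661 FPKM in L3 larvae, against 1260 to 1520 FPKM in L1 larvae, and the 2 pharyngeal muscle markers to 140 to 250 FPKM, against 406 to 408 FPKM, with all of them lower in every L3 library. These marker values are from the first collection of N2 L3 larvae. In the second collection the germ line markers summed to 52.2 to 71.1 FPKM. The neuronal markers there summed to 632 to 1440 FPKM, which overlaps the L1 range, and the pharyngeal muscle markers to 124 to 280 FPKM. The part of these tissues in the falls was not tested. The count turned on single L3 libraries: it was 0 without N2 L3 replicate 1 or without replicate 2, and 6 without replicate 3. It was 18 without either L1 library, and 5 with the second collection of N2 L3 larvae. The share of all genes called at these settings is not given.

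In early embryos, N2 hermaphrodites and mixed sex cultures differed in 15 of 28 ceh genes tested. 4 genes were higher and 11 lower in hermaphrodites, where 6.84% of all 9576 genes were higher and 8.73% lower (limma). The higher genes were ceh-21, ceh-40, ceh-49 and ceh-51. The N2 early embryo libraries also serve the stage comparison and those of the dpy-27(y56) and dpy-21(e428) early embryos. The lower genes were ceh-6, ceh-8, ceh-10, ceh-20, ceh-22, ceh-26, ceh-30, ceh-31, ceh-34, ceh-45 and ceh-53. ceh-51 was at 69.0, 89.7 and 60.1 FPKM in hermaphrodites, against 57.1, 47.9 and 34.3 FPKM in mixed sex embryos (log2 ratio 0.76 ± 0.20, adjusted p = 0.0417). ceh-40 was at 106, 116 and 88.0 FPKM in hermaphrodites, against 69.2, 64.1 and 67.6 FPKM in mixed sex (0.72 ± 0.14, adjusted p = 0.0160). In both genes the lowest hermaphrodite library lay above the highest mixed sex library. ceh-49 was at 141.8, 136 and 150.5 FPKM, against 115, 96.1 and 111 FPKM in mixed sex (0.51 ± 0.12, adjusted p = 0.0293), and ceh-21 at 93.9, 93.8 and 93.3 FPKM, against 71.0, 76.3 and 73.2 FPKM (0.45 ± 0.10, adjusted p = 0.0259).

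The lower genes differed by more, but the 4 given here were below 1 FPKM in every hermaphrodite library. They passed the filter only through the mixed sex group, where they are high, which fixed their direction. With no filter 6 genes were called in all, and the share of all genes at that setting is not given. ceh-8 was at 0, 0.0566 and 0.140 FPKM in hermaphrodite early embryos, against 3.73, 3.05 and 1.33 FPKM in mixed sex early embryos (log2 ratio -3.99 ± 0.67, adjusted p = 0.0106). ceh-22 was at 0.283, 0.0341 and 0.120 FPKM, against 3.29, 4.68 and 1.21 FPKM in mixed sex (-3.56 ± 0.68, adjusted p = 0.0168), and ceh-53 was at 0.373, 0.287 and 0.237 FPKM, against 3.54, 6.55 and 4.48 FPKM in mixed sex (-3.52 ± 0.42, adjusted p = 0.00340). ceh-26 was at 0.476, 0.637 and 0.420 FPKM in hermaphrodites, against 6.38, 7.33 and 4.54 FPKM in mixed sex (-3.24 ± 0.35, adjusted p = 0.00280). No library of one culture reached the range of the other in these genes. Beside them, the summed level of the 3 body wall muscle markers was 2.67 to 5.40 FPKM in hermaphrodite early embryos, against 12.1 to 22.5 FPKM in mixed sex early embryos, and all 3 were lower in every hermaphrodite library. The summed maternal markers overlapped (3160 to 4920 FPKM in hermaphrodites and 3570 to 3930 FPKM in mixed sex), and the part of embryo age in the result was not tested. With FPKM values used as deposited, without scaling between libraries, 1 gene was higher and 11 were lower. The count was 4 without mixed sex replicate 1 or without replicate 2, and 7 without N2 replicate 1, where 3.57% to 4.4% of all genes were called. Of the genes given with values, ceh-8, ceh-22 and ceh-30 lost their call without either of those mixed sex libraries (adjusted p of 0.05 to 0.0839), and ceh-21, ceh-40, ceh-49 and ceh-51 without either of them or N2 replicate 1 (0.0583 to 0.122). ceh-21, ceh-49 and ceh-51 also lost it without N2 replicate 2, ceh-49 without N2 replicate 3, ceh-51 without mixed sex replicate 3, and these 3 genes without scaling.

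The X-linked members were called in both directions between the sexes in early embryos. Of 7 tested, ceh-21 and ceh-40 were higher and ceh-30 and ceh-31 lower in hermaphrodites, and the median log2 ratio was 0.09, beside 0.14 for all X-linked genes. The autosomal ceh genes had a median of -0.57, beside -0.02 for all autosomal genes. The difference between X-linked and autosomal members was not tested. ceh-30, the BarH gene required for survival of the male CEM neurons, was at 1.97, 2.48 and 0.959 FPKM in hermaphrodites, against 10.1, 10.2 and 6.4 FPKM in mixed sex (log2 ratio -2.21 ± 0.38, adjusted p = 0.0111). For ceh-36 (0.33 ± 0.23, adjusted p = 0.334) and ceh-37 (-0.29 ± 0.21, adjusted p = 0.358) the libraries overlapped.

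At later stages no ceh gene was called between hermaphrodites and mixed sex cultures. In comma embryos 0 of 38 passed (2 at an unadjusted p below 0.05 in limma, ceh-19 and ceh-24), where 0.0427% of all genes were higher and 0.0256% lower. In L1 larvae 0 of 38 passed (2 unadjusted, ceh-30 and ceh-16), where 0% of all genes were higher and 0% lower. In L3 larvae 0 of 30 passed (7 unadjusted), where 0% of all genes were higher and 0.0157% lower. The median log2 ratio of the ceh genes was 0.08 in comma embryos, -0.06 in L1 larvae and -0.20 in L3 larvae. These shares of all genes are for adjusted calls, and those at an unadjusted p below 0.05 are not given. All 7 genes with an unadjusted p below 0.05 in L3 larvae (ceh-6, ceh-16, ceh-19, ceh-20, ceh-23, ceh-30 and ceh-43) had lower means in hermaphrodites. The smallest adjusted p among them was 0.134, for ceh-19, a gene of the pharyngeal MC motor neurons, which was at 3.01, 2.91 and 2.26 FPKM in N2 L3 larvae, against 4.72, 6.56 and 5.97 FPKM in mixed sex L3 larvae. Without mixed sex L3 replicate 1, 3 genes passed, where 4.57% of all genes did.

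For ceh-30 the higher mean was not in the same culture at each stage, and the difference between stages was not tested. Its levels were 46.1, 47.5 and 41.5 FPKM in hermaphrodite comma embryos, against 44.1, 48.3 and 41.3 FPKM in mixed sex comma embryos. They were 4.01 and 8.41 FPKM in hermaphrodite L1 larvae, against 0.773 and 1.74 FPKM in mixed sex L1 larvae, and 1.16, 1.18 and 1.36 FPKM in hermaphrodite L3 larvae, against 1.56, 3.00 and 4.52 FPKM in mixed sex L3 larvae. The groups overlapped in comma embryos but not in either larval stage, and neither larval difference passed adjustment (adjusted p = 0.699 and 0.306 with limma). ceh-18 was at 15.9, 14.9 and 14.5 FPKM in N2 L3 larvae, against 14.5, 12.4 and 11.4 FPKM in mixed sex L3 larvae (adjusted p = 0.410). ceh-24 was at 7.21, 7.04 and 13.6 FPKM in N2 comma embryos, against 6.46, 4.05 and 4.46 FPKM in mixed sex comma embryos (adjusted p = 0.431). ceh-60, a PBC gene with a role in vitellogenesis, overlapped between the sexes in comma embryos and in L3 larvae.

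dpy-27(y56) early embryos differed from N2 in most ceh genes tested. Of 31 tested, 20 were higher and 4 lower in dpy-27(y56), where 26.2% of all 10790 genes were higher and 21.8% lower (limma). Among the 20, ceh-2, ceh-8, ceh-17, ceh-22, ceh-26 and others were below 1 FPKM in every N2 library. Such genes passed the filter only through dpy-27(y56), which fixed their direction, and they enter the count and the median. The median log2 ratio was 1.11 for the ceh genes and -0.04 for all genes. Autosomal members were called as well as X-linked ones: 4 of the 8 X-linked ceh genes tested were higher and 1 was lower, with a median of 0.67 beside 1.00 for all X-linked genes, whereas the 23 autosomal ones had a median of 1.48 beside -0.15 for all autosomal genes. Other homeobox genes gave 15 higher and 2 lower of 23 tested, with a median of 1.44. The genes called included 6 of 7 PRD-like genes, both sine oculis-type genes tested and 5 of 6 other ANTP genes, all of them higher.

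ceh-22 was at 7.19, 13.6 and 16.8 FPKM in dpy-27(y56) early embryos, against 0.283, 0.0341 and 0.120 FPKM in N2 (log2 ratio 5.62 ± 0.58, adjusted p = 0.000364). ceh-26 was at 13.7, 19.4 and 23.1 FPKM in dpy-27(y56), against 0.476, 0.637 and 0.420 FPKM in N2 (4.79 ± 0.35, adjusted p = 0.000112). ceh-2, a relative of EMX genes that acts in pharyngeal neurons, was at 4.40, 5.47 and 6.66 FPKM in dpy-27(y56), against 0.271, 0.278 and 0 FPKM in N2 (4.41 ± 0.68, adjusted p = 0.00186). In each of these genes the lowest mutant library lay above the highest N2 library. ceh-17 was at 1.46, 3.01 and 2.54 FPKM in dpy-27(y56) and is listed at 0 in N2. The smallest adjusted p was that of ceh-34 (9.33e-05), at 41.7, 51.6 and 47.6 FPKM in dpy-27(y56), against 3.30, 2.71 and 1.98 FPKM in N2. The other genes that were higher were ceh-5, ceh-6, ceh-8, ceh-10, ceh-14, ceh-16, ceh-20, ceh-27, ceh-30, ceh-31, ceh-32, ceh-37, ceh-45, ceh-48 and ceh-53.

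The 4 lower genes were ceh-51, ceh-49, ceh-91 and ceh-21. ceh-51 was at 42.8, 37.8 and 36.5 FPKM in dpy-27(y56) early embryos, against 69.0, 89.7 and 60.1 FPKM in N2 (log2 ratio -1.03 ± 0.17, adjusted p = 0.00274). ceh-49 was at 97.1, 67.0 and 79.1 FPKM in dpy-27(y56), against 141.8, 136 and 150.5 FPKM in N2 (-0.98 ± 0.15, adjusted p = 0.00189). Neither overlapped. ceh-91 was at 21, 17.2 and 11.3 FPKM, against 24.1, 21.9 and 29.2 FPKM in N2 (-0.78 ± 0.26, adjusted p = 0.0391), and ceh-21 at 67.9, 65.3 and 56.5 FPKM, against 93.9, 93.8 and 93.3 FPKM in N2 (-0.72 ± 0.12, adjusted p = 0.00308). ceh-91 kept its call without dpy-27(y56) replicate 1 and lost it without any other 1 of the 6 libraries (adjusted p of 0.0561 to 0.119) and without scaling (0.0739). Markers of embryonic stage and of muscle differed between the same libraries. The summed maternal markers were at 1910 to 2470 FPKM in dpy-27(y56), against 3160 to 4920 FPKM in N2, with 7 of 8 genes lower in every mutant library, and the summed body wall muscle markers were at 86.4 to 189 FPKM, against 2.67 to 5.40 FPKM in N2. Pharyngeal muscle markers, of which 2 of 3 are in the table, summed to 3.98 to 11.6 FPKM in dpy-27(y56), against 0.336 to 0.836 FPKM in N2. The part of embryo age in the result was not tested.

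Among X-linked members, ceh-37 was at 58.2, 61.3 and 44.3 FPKM in dpy-27(y56) early embryos, against 23.8, 28.1 and 17.7 FPKM in N2 (log2 ratio 1.09 ± 0.22, adjusted p = 0.00543). Its neighbour ceh-36 was at 130, 121 and 63.5 FPKM in dpy-27(y56), against 76.4, 102 and 56.7 FPKM in N2, and the libraries overlapped (adjusted p = 0.543). ceh-30 and ceh-31 were higher by 3.14 ± 0.62 and 3.25 ± 0.48. ceh-41, ceh-40, ceh-38, ceh-43, ceh-44 and ceh-100 were not called, nor was ceh-36.

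**Figure D3:**
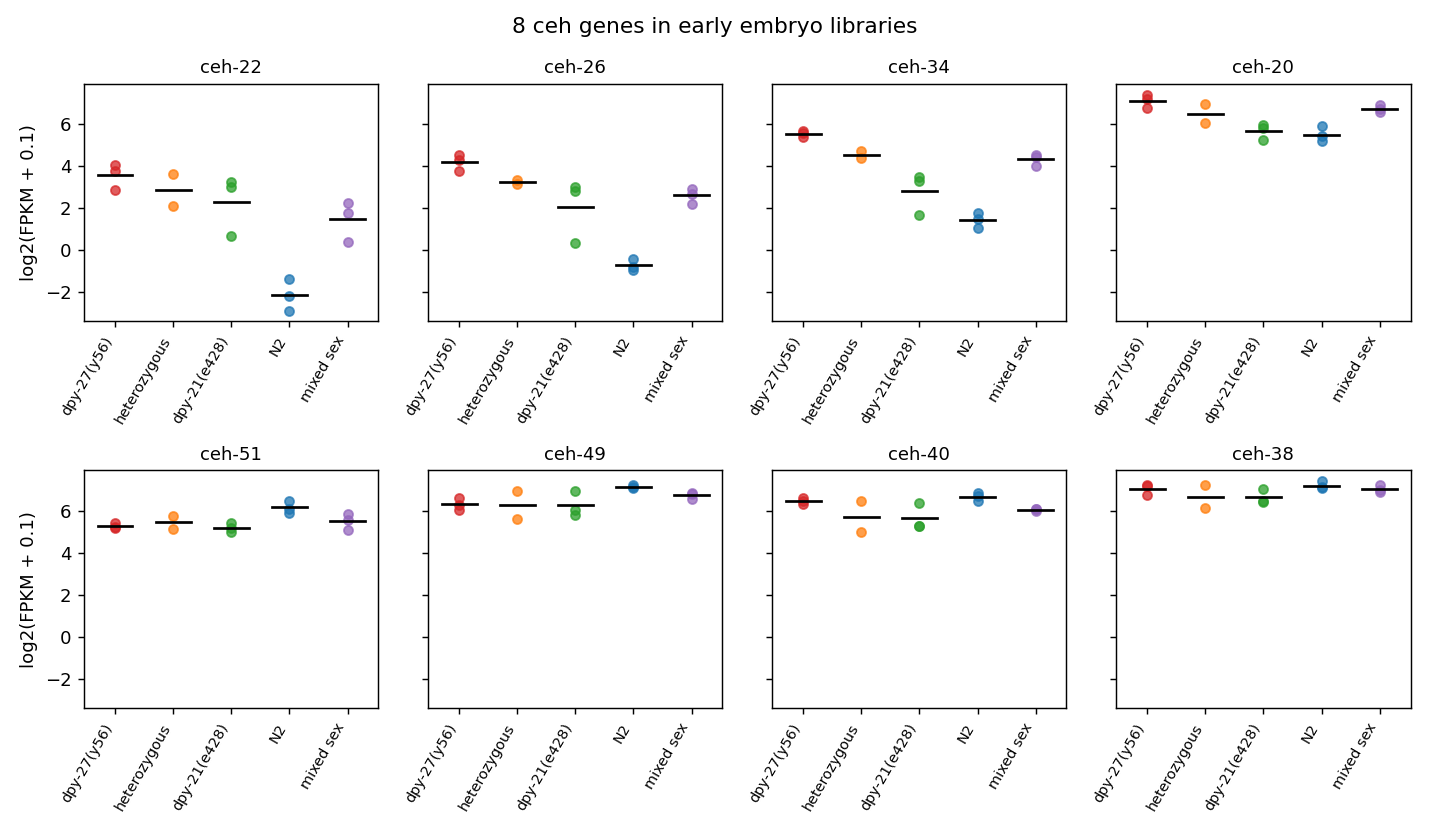
Levels of 8 ceh genes as log2(FPKM + 0.1) in single early embryo libraries of dpy-27(y56), heterozygous dpy-27(y56), dpy-21(e428), N2 and mixed sex, with bars for the mean of the log2 values. The means of ceh-22, ceh-26 and ceh-34 were lowest in N2, and those of ceh-51 and ceh-49 were highest there.

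Set against heterozygous dpy-27(y56) early embryos in place of N2, homozygous embryos differed in no ceh gene. 0 of 34 passed (1 at an unadjusted p below 0.05 in limma, ceh-34), where 0% of all genes were higher and 0% lower, and the median log2 ratio was 0.14. The heterozygous group has 2 libraries. ceh-22 was at 7.19, 13.6 and 16.8 FPKM in dpy-27(y56), against 4.24 and 12.2 FPKM in heterozygous embryos, and ceh-51 at 42.8, 37.8 and 36.5 FPKM, against 54.3 and 35.7 FPKM, and both overlapped. ceh-34 was at 41.7, 51.6 and 47.6 FPKM in dpy-27(y56), above the 26.4 and 20.6 FPKM of heterozygous embryos (adjusted p = 0.833). The summed maternal markers were 1910 to 2470 FPKM in dpy-27(y56) and 1480 to 2480 FPKM in heterozygous embryos. 1 gene passed without heterozygous replicate 1, where 6.37% of all genes did.

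In dpy-27(y56) L1 larvae 0 of 39 ceh genes passed against N2 (6 unadjusted in limma), where 0.255% of all genes were higher and 0.0851% lower. The smallest adjusted p was 0.171, and the X-linked ceh genes had a median log2 ratio of 0.23, beside 0.31 for all X-linked genes. ceh-36 was at 6.81, 5.92 and 3.28 FPKM in dpy-27(y56) L1 larvae, against 1.76 and 1.44 FPKM in N2 (log2 ratio 1.45 ± 0.52, adjusted p = 0.274). ceh-30 was at 2.67, 2.79 and 2.26 FPKM, against 4.01 and 8.41 FPKM in N2 (-1.33 ± 0.52, adjusted p = 0.307). Neither gene overlapped between the groups, and the directions were opposite. ceh-18 was at 41.8, 36.7 and 40.6 FPKM, against 32.4 and 25.2 FPKM in N2 (adjusted p = 0.553). ceh-24, ceh-37 and ceh-60 overlapped. With 2 N2 libraries the count again turned on single ones, and 4 genes passed without N2 L1 replicate 2, where 6.42% of all genes did.

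dpy-27 RNAi changed no ceh gene past adjustment. In mixed embryos 0 of 39 passed and 0 had an unadjusted p below 0.05 (limma), where 0% of all genes were higher and 0% lower. The Vector RNAi mixed embryo libraries varied widely. Deviations from the group means correlated between dpy-27 RNAi and Vector RNAi libraries of the same replicate number. The correlations were 0.730, 0.925 and 0.584 for replicates 1, 2 and 3, and 0.059 for replicate 4. With the replicate number as a block the count of genes called stayed 0. ceh-36 was at 105, 62.1, 94.8 and 111 FPKM in dpy-27 RNAi mixed embryos, against a lowest value of 45.4, a median of 82.5 and a highest value of 167 FPKM in the 6 Vector RNAi libraries. ceh-18 was at 12.9, 29.8, 2.04 and 3.38 FPKM in dpy-27 RNAi, against a lowest value of 0.298, a median of 2.79 and a highest value of 21.2 FPKM in Vector RNAi. The dpy-27 RNAi libraries of ceh-36 lay within the range of Vector RNAi, whereas those of ceh-18 overlapped with it in part, and replicate 2 lay above it. Of the 11 X-linked ceh genes tested, 10 had a positive log2 ratio, with a median of 0.23 beside 0.57 for all X-linked genes, and the autosomal ones had a median of -0.01. The summed maternal markers were 572 to 1630 FPKM in dpy-27 RNAi and 512 to 3720 FPKM in Vector RNAi.

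In dpy-27 RNAi L3 larvae 0 of 35 passed (3 unadjusted in limma, all of them higher and X-linked: ceh-21, ceh-37 and ceh-41), where 0.0235% of all genes were higher and 0.00782% lower. ceh-37 was at 20.9, 20.7, 21.9 and 36.8 FPKM in dpy-27 RNAi, against 15.4, 17, 13.9 and 16.4 FPKM in Vector RNAi (log2 ratio 0.58 ± 0.20, adjusted p = 0.292). ceh-41 was at 7.43, 5.24, 8.35 and 5.73 FPKM, against 4.23, 3.71, 4.11 and 4.42 FPKM in Vector RNAi (0.61 ± 0.19, adjusted p = 0.254). ceh-21 was at 3.85, 3.26, 3.93 and 3.89 FPKM, against 2.22, 2.28, 3.16 and 2.41 FPKM in Vector RNAi (0.51 ± 0.19, adjusted p = 0.337). In all 3 genes every dpy-27 RNAi library lay above every Vector RNAi library, including the library labelled replicate 1, whose dpy-27 level went against its label. The count stayed 0 when that library was left out. Of the 9 X-linked ceh genes tested, 8 had a positive log2 ratio and ceh-60 did not (-0.09 ± 0.48), and the median was 0.51, beside 0.39 for all X-linked genes and 0.10 for autosomal ceh genes.

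dpy-21(e428) early embryos had 3 ceh genes higher and 0 lower of 28 tested, where 2.83% of all 9636 genes were higher and 3.19% lower (limma). With an unadjusted p below 0.05, 8 were higher and 3 lower, and the share of all genes at that threshold is not given. ceh-22 was at 9.51, 7.82 and 1.49 FPKM in dpy-21(e428), against 0.283, 0.0341 and 0.120 FPKM in N2 (log2 ratio 4.67 ± 0.88, adjusted p = 0.0385). ceh-44 was at 93.2, 68.3 and 101 FPKM in dpy-21(e428), against 53.5, 47.6 and 62.1 FPKM in N2 (0.94 ± 0.16, adjusted p = 0.0329). ceh-100 was at 180, 132 and 148 FPKM in dpy-21(e428), against 90.2, 87.2 and 116 FPKM in N2 (0.92 ± 0.18, adjusted p = 0.0385). None of the 3 is X-linked, and none overlapped. ceh-22 was below 1 FPKM in N2 and passed the filter only through dpy-21(e428). Without scaling between libraries, 1 gene was higher and 1 lower, and ceh-44 (adjusted p = 0.0906) and ceh-100 (adjusted p = 0.0856) were no longer called.

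Replicate 3 of dpy-21(e428) early embryos stood apart in several members. ceh-34 was at 9.84, 10.9 and 3.09 FPKM in dpy-21(e428), against 3.30, 2.71 and 1.98 FPKM in N2, and ceh-26 at 7.83, 6.91 and 1.15 FPKM, against 0.476, 0.637 and 0.420 FPKM. In ceh-22, ceh-26 and ceh-34 the third library was the lowest of the group. ceh-51 was at 42.7, 32.1 and 36.6 FPKM in dpy-21(e428), below the N2 libraries (adjusted p = 0.0752). Without dpy-21(e428) replicate 3 the count of genes called was 17, where 49.4% of all genes were called, and it was 0 without any other library of either group. With the replicate number as a block, which pairs the libraries here, it was 6, where 10.9% of all genes were called. The body wall muscle markers summed to 9.58 to 163 FPKM in dpy-21(e428), against 2.67 to 5.40 FPKM in N2, and the maternal markers to 1720 to 3100 FPKM, against 3160 to 4920 FPKM in N2. The part of embryo age was not tested. The comparison shares its N2 libraries with that of dpy-27(y56).

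**Figure D4:**
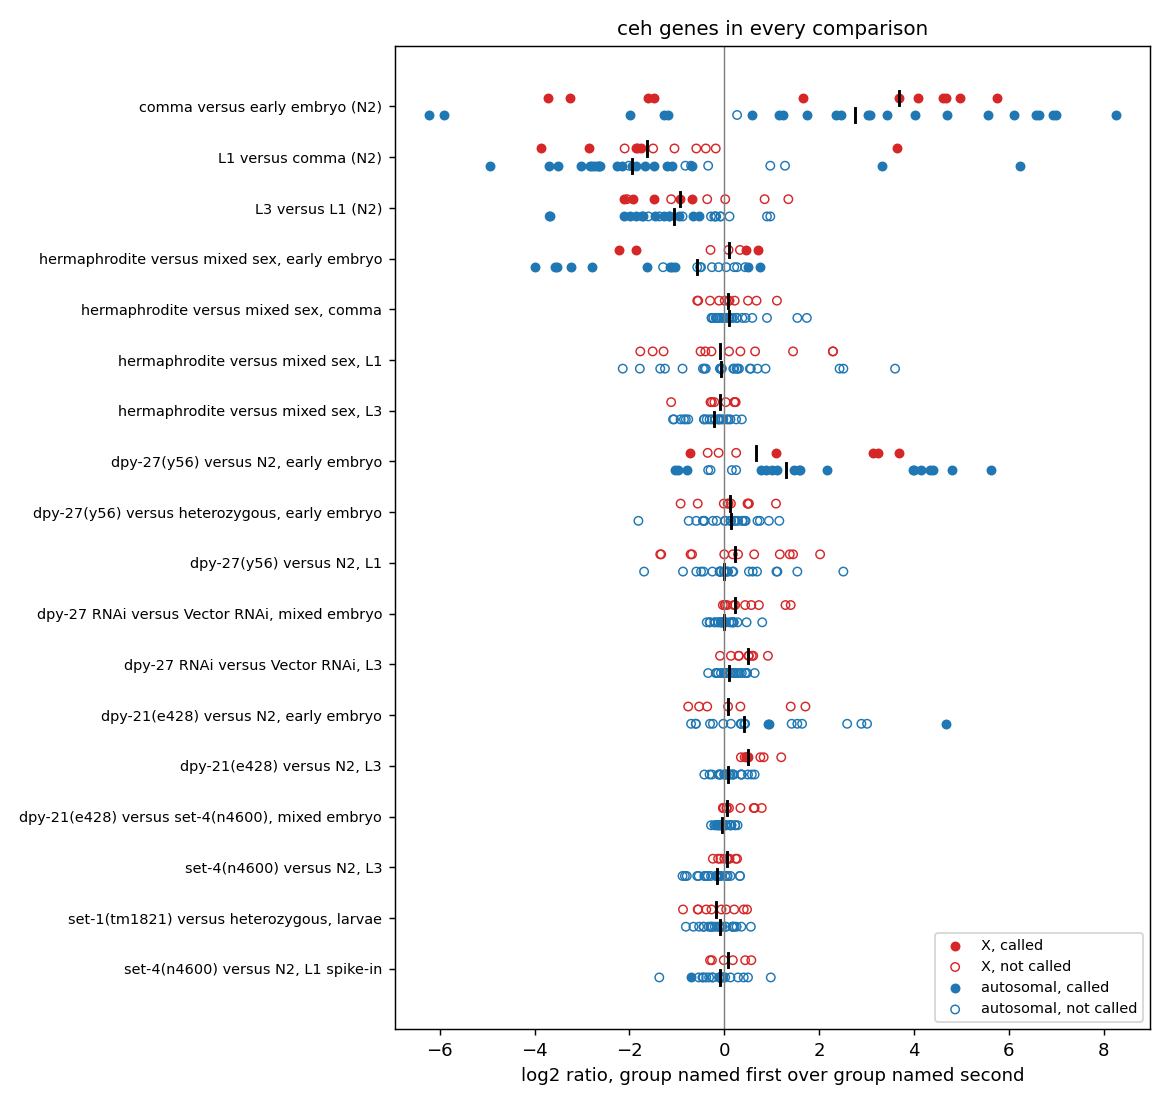
Log2 ratio of each ceh gene tested in each of the 18 comparisons (1 point per gene, red for X-linked and blue for autosomal, filled where called), with black bars for medians of the genes drawn. Genes listed at 0 in all libraries of a group have no ratio and are not drawn. The called genes lie mostly in the stage comparisons and in the early embryo comparisons with N2, and few lie elsewhere.

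In dpy-21(e428) L3 larvae only 1 of the 34 ceh genes tested was called, where 6.21% of all 12614 genes were higher and 0.753% lower (limma). That gene was ceh-37, at 22.2, 27.3, 24.1 and 23.1 FPKM in dpy-21(e428), against 15.7, 16.7, 16.9 and 15 FPKM in N2 (log2 ratio 0.51 ± 0.11, adjusted p = 0.0330). All 4 mutant libraries lay above all 4 N2 libraries. ceh-18 was at 21.6, 22.6, 25.0 and 29.6 FPKM in dpy-21(e428), against 13.2, 21.1, 18.6 and 15.3 FPKM in N2 (0.47 ± 0.18, adjusted p = 0.186), and ceh-21 at 3.08, 3.58, 3.64 and 3.14 FPKM, against 2.51, 2.46, 2.82 and 1.43 FPKM (0.50 ± 0.17, adjusted p = 0.128). These genes did not overlap either. ceh-60 had the highest log2 ratio of the X-linked members (1.20 ± 0.66, adjusted p = 0.376), and its libraries overlapped, at 0.867, 1.48, 2.30 and 2.26 FPKM in dpy-21(e428) and 0.111, 1.43, 1.45 and 0.425 FPKM in N2.

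All 10 X-linked ceh genes tested had a positive log2 ratio in dpy-21(e428) L3 larvae, between 0.35 and 1.20. Their median was 0.50, beside 0.59 for all X-linked genes, and that of the autosomal ceh genes was 0.08. Of the autosomal genes, ceh-34 was at 8.89, 10.8, 10.0 and 9.80 FPKM in dpy-21(e428), against 13, 17.4, 11.8 and 9.41 FPKM in N2, which overlapped (-0.42 ± 0.14, adjusted p = 0.110). ceh-37 lost its call without any 1 of 6 libraries, namely dpy-21(e428) replicates 2, 3 and 4 and N2 replicates 1, 2 and 3, with adjusted p between 0.0569 and 0.106. Against the first collection of N2 L3 larvae, 23 ceh genes were higher and 1 lower of 33 tested, where 22.9% of all genes were higher and 20.3% lower.

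**Figure D5:**
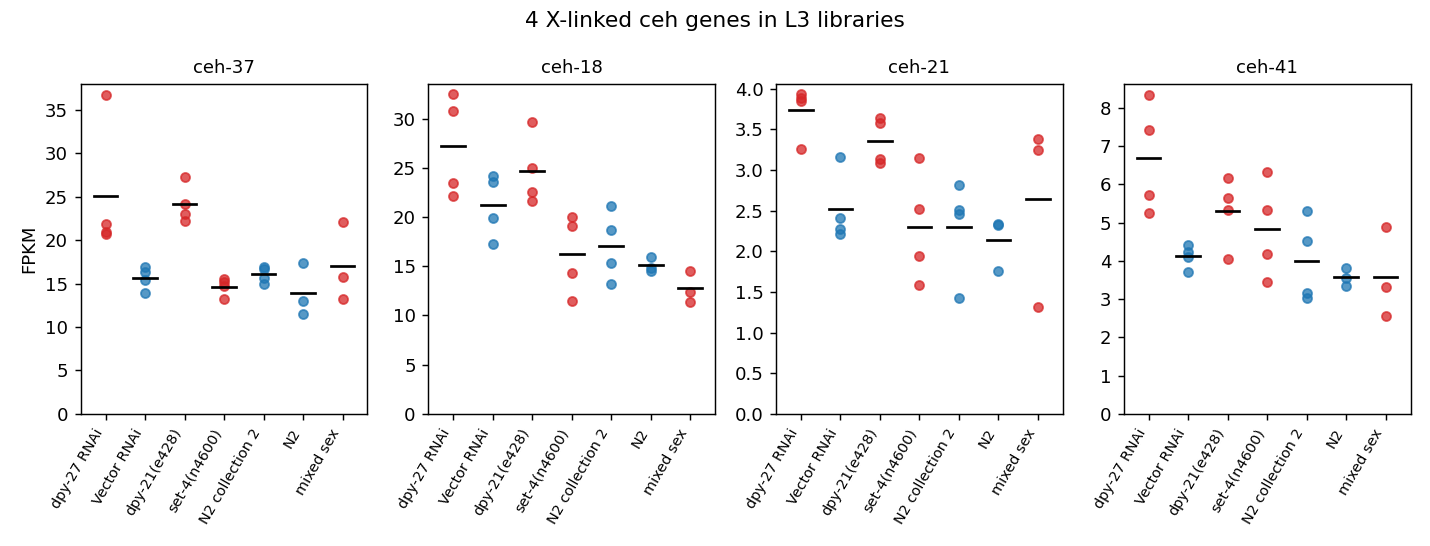
FPKM of the X-linked genes ceh-37, ceh-18, ceh-21 and ceh-41 in single L3 libraries of 7 groups, with bars for the mean, red points for mutant, RNAi and mixed sex libraries and blue points for N2 and Vector RNAi. In ceh-37, the dpy-27 RNAi and dpy-21(e428) libraries, all at 20.7 FPKM or more, lay above the Vector RNAi, set-4(n4600) and N2 libraries.

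set-4(n4600) L3 larvae gave 0 of 32 ceh genes called (3 unadjusted in limma, ceh-19, ceh-34 and ceh-52, all with lower means in the mutant), where 0% of all genes were higher and 0.00801% lower. ceh-37 was at 13.2, 15.5, 15.2 and 14.7 FPKM in set-4(n4600), against 15.7, 16.7, 16.9 and 15 FPKM in N2 (log2 ratio -0.13 ± 0.13, adjusted p = 0.918). ceh-34 was at 7.37, 8.17, 10.4 and 8.69 FPKM, against 13, 17.4, 11.8 and 9.41 FPKM in N2 (-0.54 ± 0.18, adjusted p = 0.914). Both overlapped. The X-linked ceh genes had a median log2 ratio of 0.06. The same 4 N2 libraries served for the dpy-21(e428) mutant at L3.

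When mixed embryos of dpy-21(e428) were set against those of set-4(n4600), 0 of 39 ceh genes passed and 0 had an unadjusted p below 0.05 (limma), where 0% of all genes were higher and 0% lower. The median log2 ratio was -0.01. Libraries labelled dpy-21(e428) had ceh-37 at 69.9, 201, 52.6 and 99.5 FPKM, against 155, 85.6, 68.4 and 76.6 FPKM in those labelled set-4(n4600), and ceh-36 at 77.7, 122, 40.3 and 102 FPKM, against 184, 61.2, 57.6 and 57.4 FPKM. The highest library of each group lay well above the other libraries for ceh-37, and the groups overlapped. Without the 2 libraries whose set-4 level goes against their labels, a setting chosen after seeing the data, 0 of 39 passed, 0 had an unadjusted p below 0.05, and the median was 0.09.

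Homozygous set-1(tm1821) larvae gave 0 of 35 ceh genes called against heterozygous larvae (1 unadjusted in limma, ceh-18), where 0.00778% of all genes were higher and 0.00778% lower. ceh-18 was at 19.5, 18.9 and 19.7 FPKM in homozygous larvae, against 16.3, 12.7 and 16.9 FPKM in heterozygous larvae (log2 ratio 0.41 ± 0.16, adjusted p = 0.277). ceh-37 was at 24.2, 27.8 and 29.9 FPKM, against 21.7, 24.9 and 26.8 FPKM (0.21 ± 0.15, adjusted p = 0.532). The first did not overlap and the second did. The X-linked ceh genes had a median of -0.17, beside 0.31 for all X-linked genes, and 4 of 10 had a positive log2 ratio.

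In the spike-in libraries, C. elegans counts of L1 larvae were scaled to those of C. briggsae L1 larvae added before extraction. Total C. elegans counts ran between 1533531 and 3215078 and C. briggsae counts between 129184 and 331898 per library. Of 28 ceh genes whose mean reached 10 counts, 0 were higher and 1 lower in set-4(n4600) than in N2, where 5.47% of all 10080 genes were higher and 20.8% lower (edgeR quasi-likelihood test, Benjamini-Hochberg). The median log2 ratio was -0.08 for the ceh genes and -0.24 for all genes. The gene called was ceh-100, with 190, 247 and 265 counts in set-4(n4600) and 154, 247 and 319 counts in N2. Per 100000 C. briggsae counts these are 92.6, 81.9 and 87.9 in set-4(n4600), against 134.6, 171 and 120.7 in N2, which no longer overlap (log2 ratio -0.70 ± 0.17, adjusted p = 0.00609). ceh-18, by contrast, was at 69.7, 70.6 and 69.3 per 100000 C. briggsae counts in set-4(n4600) and 83.9, 70.6 and 59.4 in N2 (-0.01 ± 0.18, adjusted p = 0.972). With TMM scaling over C. elegans counts in place of the spike-in, the median of all genes was -0.02, and 1 ceh gene was again lower. Leaving out set-4(n4600) replicate 2 gave 0 genes, leaving out N2 replicate 1 gave 3 and leaving out N2 replicate 2 gave 2.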

How the data were processed

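Whole-worm mRNA was sequenced in 79 libraries, and 6 further L1 libraries had C. briggsae larvae added before extraction. Per the study's methods, libraries were stranded and reads were aligned to the WS220 genome. The submitters' processing notes name CASAVA 1.8, TopHat2 2.0.11, Cufflinks 2.2.0 and HTSeq 0.6.0. The FPKM values were computed and deposited by the authors with Cufflinks. The spike-in read counts were deposited by the authors per gene for each species, after reads that map to both genomes had been discarded. Of the columns with values per library, 13 matched no sample of the series and were not used. In the C. briggsae tables, 5 summary lines that name no gene held 24.5% to 26.9% of the counts and entered neither library sizes nor tests.

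FPKM values were scaled between libraries by the median of ratios and tested as log2(FPKM + 0.1) with limma 3.58.1 (R 4.3.3), on the libraries of each pair of groups, over genes with a mean of the group means above 1 FPKM. Log2 ratios are on that scale and understate the change of low genes. A gene near 0 in 1 group can pass the filter of 1 FPKM only through the other group, which fixes the direction of its ratio. Counts were tested with the quasi-likelihood test of edgeR 4.0.16 for genes whose mean reached 10 counts, with library sizes from C. briggsae counts. p-values were adjusted by Benjamini-Hochberg over all genes tested, and genes were called at 0.05. Shares of all genes refer to these adjusted calls. Counts at an unadjusted p below 0.05 have no such share beside them and cannot be set against a background. Errors of log2 ratios are SE. Genes were placed on chromosomes by locus tag in a RefSeq table, which placed all 44 ceh genes.

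The ceh genes and the gene lists were chosen with earlier results of these data known. Values are given for all called genes where at most 8 were called, otherwise for the 4 largest rises and the 4 largest falls without overlap, with further genes listed by name for stages, sexes and mutants. Alternatives were another pseudocount (1), no filter, no scaling, a replicate block, DESeq2 1.42.0 for counts, another N2 L3 collection, and leaving out each library. Replicate numbers were taken to pair libraries where deviations from the group means correlated above 0.1 in every pair, which held for dpy-27 RNAi L3 (0.137 to 0.635), dpy-21(e428) early embryos (0.166 to 0.218), set-4(n4600) L3 (0.267 to 0.697) and set-1(tm1821) larvae (0.105 to 0.388). dpy-27 RNAi mixed embryos missed this rule through replicate 4 (0.059), though replicates 1, 2 and 3 correlated at 0.730, 0.925 and 0.584. The main tests used no block in any comparison.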

Additional observations from a re-analysis of the deposited data

Results flagged for a closer look

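In groups of 4 to 6 libraries, 63 sets of values of ceh-18, ceh-24, ceh-30, ceh-31, ceh-36, ceh-37 and ceh-60 were searched for a library far from the others, and 4 were found. Chance alone gives about 1 in 20. The library labelled set-4(n4600) mixed embryo replicate 1 was at 64.6 FPKM for ceh-30, where the next was 38.5 FPKM, and at 184 FPKM for ceh-36, where the next was 61.2 FPKM. In dpy-27 RNAi L3 larvae, replicate 4 was at 36.8 FPKM for ceh-37, where the next was 21.9 FPKM. Vector RNAi mixed embryo replicate 5 was at 0.691 FPKM for ceh-60, where the next was 1.90 FPKM.

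Some genes had all libraries of a group on one side at one stage and on the other side at another, and these differences between stages were not tested. In L1 larvae 16 of 38 ceh genes did not overlap between hermaphrodites and mixed sex, and 13 of 39 between dpy-27(y56) and N2. In both comparisons 0 ceh genes were called. With 2 libraries in a group such separation often arises by chance, and the share over all genes is not given. Between hermaphrodites and mixed sex, the log2 ratio of ceh-21 was 0.45 in early embryos and -0.57 in comma embryos. That of ceh-22 was -3.56 in early embryos, 0.27 in comma embryos and -1.35 in L1 larvae. For ceh-6 it was -1.03 in early embryos, 0.54 in L1 larvae and -0.92 in L3 larvae, and for ceh-30 it was -2.21, 2.29 and -1.12 at the same stages. Early embryos and L1 larvae gave -3.99 and 3.60 for ceh-8, -1.87 and 0.65 for ceh-31, and -2.79 and 0.26 for ceh-34. Between dpy-27(y56) and N2, early embryos and L1 larvae gave 1.58 and -0.87 for ceh-6, 4.34 and -1.69 for ceh-8, 3.14 and -1.33 for ceh-30, and 3.25 and -0.71 for ceh-31.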

How the results depend on the processing

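Of 1248 log2 ratios of called ceh genes recomputed under other settings, 1033 kept their call, 215 lost it and 0 changed sign. For L3 against L1, where 16 genes were called, 5 were called with the second N2 L3 collection, 1 with the replicate block and 0 to 18 without one library. For hermaphrodites against mixed sex, early embryos gave 15 genes, 6 with no filter and 4 to 15 without one library, comma embryos gave 0, or 1 with no filter, and L3 larvae gave 0, or 3 with the second N2 L3 collection and 0 to 3 without one library. dpy-27(y56) against heterozygous early embryos gave 0 to 1 and against N2 L1 larvae 0 to 4 without one library. dpy-21(e428) early embryos gave 3 genes, 1 with no filter, 6 with the replicate block and 0 to 17 without one library. dpy-21(e428) L3 larvae gave 1 gene, 3 with no filter, 24 with the first N2 L3 collection, 0 with the replicate block and 0 to 1 without one library. The spike-in comparison gave 1 gene and 0 to 3 without one library. No share of all genes stands beside these counts here, so their swings cannot be read as a trait of the ceh genes. The causes were not tested. The replicate block changed no other count of calls by over 1.5 times. No paired analysis was possible for hermaphrodites against mixed sex in L1 larvae because the groups share 1 replicate number. Omitting the scaling moved the median log2 ratio of all genes to -0.22 for L3 against L1, to 0.11 and 0.24 for dpy-27(y56) early embryos against N2 and heterozygous embryos, to 0.19 for dpy-27(y56) L1 larvae and to -0.26 for dpy-21(e428) early embryos. FPKM values give no depth per gene, and groups of 2 libraries limit the L1 and heterozygous comparisons.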
